A study of Mus musculus with 16 samples.

Results

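The monoamine and muscarinic receptor genes are those that encode the receptors for serotonin (Htr), dopamine (Drd), noradrenaline (Adra and Adrb), acetylcholine of the muscarinic kind (Chrm) and histamine (Hrh). They were taken by gene symbol from the table of read pair counts, which lists 47593 genes. Of 37 symbols of these families, 31 had at least 10 counts in at least 4 of the 16 libraries and are described as the members. All libraries were made from cortex of 5-month-old 5xFAD mice, which carry human transgenes with familial Alzheimer's disease mutations under the neuronal mouse Thy1 promoter and develop amyloid plaques. Mice were fed either a diet with microencapsulated rapamycin, an inhibitor of the mTOR kinase, or a vehicle diet with the carrier alone, from 2 to 5 months of age. Females and males were each split into vehicle and rapamycin groups, with 4 libraries in each of the 4 groups. All 4 groups carry the transgenes and no wild-type group is used here, so no value below measures an effect of the transgenes.

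Serotonin, dopamine, noradrenaline, acetylcholine and histamine reach the cortex through long axons of small cell groups that lie mostly below it, so in cortical tissue the receptor genes are read mainly from the receiving cells. Nearly all of these receptors act through G proteins, and the kind of G protein sets the first step. Receptors coupled to Gs raise cyclic AMP through adenylyl cyclase, those coupled to Gi/o lower it, and those coupled to Gq/11 activate phospholipase C beta, which releases calcium from internal stores. Htr3a differs, since it encodes a subunit of a serotonin-gated ion channel. In bulk tissue, fewer cells of a type and less RNA per cell cannot be told apart.

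Counts were scaled to CPM, a read pair count relative to the library total, with edgeR's TMM factors, and the libraries held between 16393501 and 20593089 counted read pairs. The labels placed 11 libraries in batch 1 and 5 in batch 2. Against its label, male rapamycin 4 gave 9935 counts for Xist and 0 for 4 Y-linked genes. It was kept in its labelled group and is called the library labelled male rapamycin 4. Markers of cortical glutamatergic neurons summed to between 4062 and 6057 CPM in all libraries, while 10 hippocampal markers summed to between 140 and 620 CPM and 12 striatal markers to between 197 and 327 CPM. The 14 choroid plexus markers summed to 2082 CPM in male vehicle 4 and to at most 346 CPM elsewhere. Counts of members that passed are also given without these 2 libraries. Calls of marker genes come from the fit of all 16 libraries only. P-values measure the spread between libraries, which the labels describe as biological replicates. The study's text speaks of pooled cortex, so whether a library holds tissue of a single mouse is not settled here.

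Levels differed widely between the members. To compare genes, CPM were divided by exon length in kilobases, and on this scale the mean over 16 libraries ran from 28.9 ± 4.14 CPM per kilobase (SD) for Chrm1 to 0.123 ± 0.0782 for Htr1d. The highest members after Chrm1, the main Gq-coupled muscarinic receptor of forebrain neurons, were Hrh3 (26.2 ± 5.82), Adrb1 (18.7 ± 3.4), Adra1d (18.5 ± 5.08), Chrm4 (17.4 ± 3.61) and Chrm3 (16.9 ± 3.49). Hrh3 encodes the Gi/o-coupled histamine receptor that also sits on axon terminals and limits transmitter release. The median member lay at 2.90 CPM per kilobase and the median of all 16553 tested genes at 4.54. Most neighbours in the order of levels did not differ beyond their spread. A gap wider than the larger SD of the pair was found between Hrh3 and Adrb1 (7.49), Chrm3 and Adra2c (7.82), Hrh1 and Htr5a (0.947) and Htr1f and Htr4 (0.459), all as differences in CPM per kilobase. The sources used here give no strand setting for the counting, so reads of an antisense gene may not be separated from those of the receptor. Exon bases were shared with a gene on the opposite strand for Drd5 (48.6%), Adrb3 (24.9%), Htr1b (18%), Hrh3 (11.1%), Adra1d (7.74%), Chrm1 (5.07%), Hrh2 (2.44%) and Chrm2 (2.35%). These are shares of bases and not of reads, so they mark uncertain levels but do not bound the error.

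**Figure D1:**
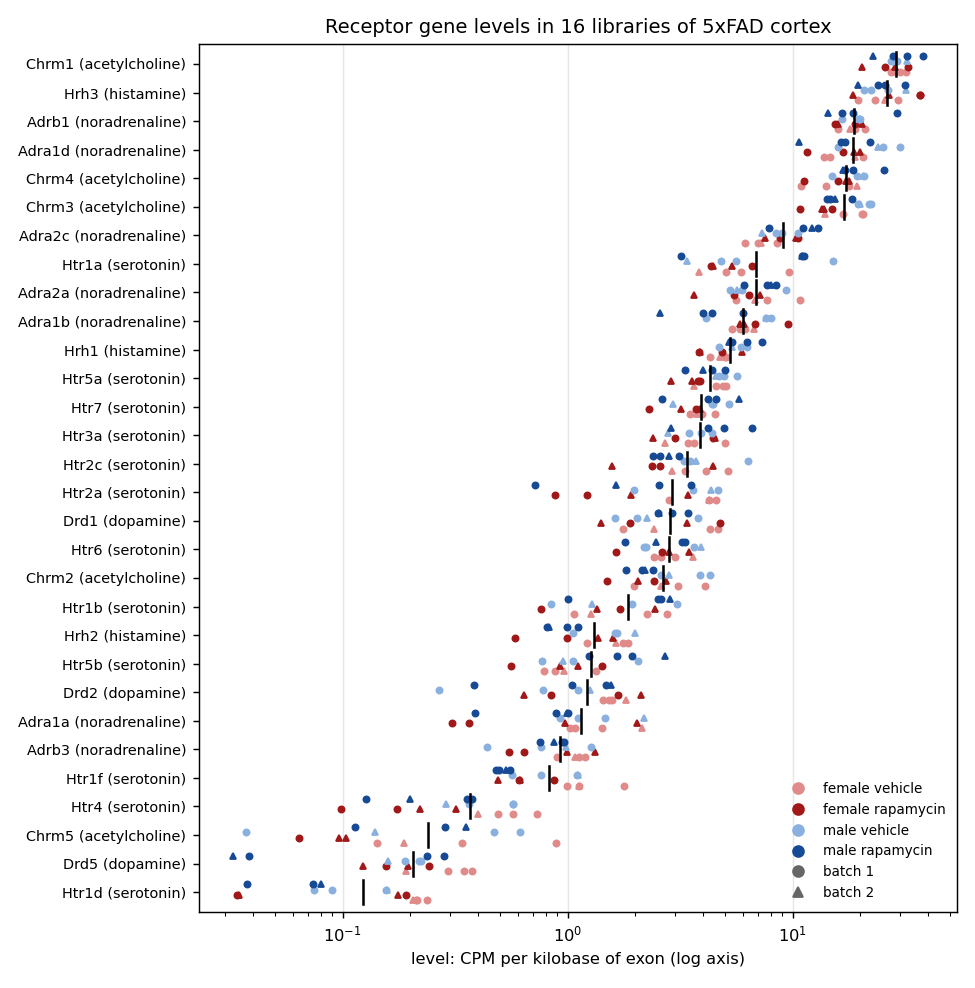
Level of each receptor gene shown, in CPM per kilobase of exon (log axis), with 1 point per library coloured by group, shaped by batch, and the mean over 16 libraries as a bar. Chrm1 and Hrh3 had the highest means and Htr1d the lowest, and libraries at 0 (Chrm5 and Htr1d) are not drawn on the log axis.

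By transmitter, the acetylcholine receptors made up 33.4% of the summed level per kilobase, the 8 noradrenaline receptors 31.5%, the 3 histamine receptors 16.6% and the 12 serotonin receptors 16.5%. The 3 dopamine receptors made up 2.16%, and the highest of them, Drd1, stood at 2.85 ± 1.08 CPM per kilobase. By coupling, the 9 members that act through Gq/11 made up 42.1%, the 12 of Gi/o 39.8%, the 9 of Gs 16.2% and Htr3a 1.97%. The highest serotonin receptor per length was Htr1a, the Gi/o-coupled receptor that inhibits neurons on which it sits, at 6.91 ± 3.54 CPM per kilobase.

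Of the 37 symbols, 6 did not reach the count threshold. Drd4 had 119 counts in female rapamycin 1 and at most 16 in any other library, and reached 10 counts in 3 libraries. Htr2b and Adra2b each reached 10 counts in 1 library, with at most 11 and 12 counts. Htr3b had at most 2 counts, Drd3 had 1 count in 1 library, and Hrh4 had 0 counts in all 16 libraries, which in the smallest library allows up to 0.183 CPM (3 counts, counting error only). Just inside the threshold were Chrm5, with 10 or more counts in 5 libraries and 29 at most, and Htr1d, with 10 or more in 7 libraries and 14 at most.

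The members varied between libraries to different degrees. Chrm1, with a coefficient of variation of 14.3%, was among the steadiest and Htr1a (51.3%) and Adra1a (51.2%) among the more variable of those with high counts. Chrm1 was read at 195, 178, 206 and 181 CPM in female vehicle, 167, 211, 132 and 185 in female rapamycin, 188, 181, 178 and 210 in male vehicle and 182, 246, 208 and 147 in male rapamycin. The 4 groups overlapped, and rapamycin against vehicle gave a log2 fold change of -0.03 (SE 0.10, edgeR adjusted p = 0.875). Hrh3 stood at 92.5, 72.9, 61.2 and 80.8 CPM in female vehicle, 116, 116, 58.1 and 84.3 in female rapamycin, 83.6, 65.2, 70.4 and 101 in male vehicle and 80.7, 99.6, 75.2 and 61.7 in male rapamycin. Its groups overlapped as well, with the highest values in female rapamycin 1 and 2 and the lowest in female rapamycin 4. Adrb1, a Gs-coupled noradrenaline receptor, was read at 47.4, 52.5, 39.6 and 44.9 CPM in female vehicle, 38.6, 47.4, 39.5 and 51.0 in female rapamycin, 49.4, 49.7, 41.1 and 48.5 in male vehicle and 41.4, 72.4, 46.2 and 35.9 in male rapamycin. Apart from 72.4 CPM in male rapamycin 2, its values lay between 35.9 and 52.5 CPM.

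Htr1a and Drd1 differed widely between libraries of the same group. Htr1a was read at 43.0, 22.5, 26.3 and 17.1 CPM in female vehicle, 29.2, 19.3, 19.6 and 24.0 in female rapamycin, 24.9, 21.3, 67.0 and 15.0 in male vehicle and 48.7, 14.2, 50.0 and 48.8 in male rapamycin. The 5 libraries above 40 CPM were female vehicle 1, male vehicle 3, male rapamycin 1 and 3, and that labelled male rapamycin 4. The summed hippocampal markers were 326, 448, 490, 480 and 537 CPM in these libraries in that order, and between 140 and 265 CPM in the others except female rapamycin 1, which had 620 CPM of hippocampal markers and 29.2 CPM of Htr1a. Of the 10 hippocampal markers Iyd was at 0 in 3 libraries, the other 9 were detected in all 16, and Wfs1 alone gave between 62.1 and 529 CPM. The sum therefore weighs Wfs1 most (median 146 CPM), before Cabp7 (38.9 CPM) and Prox1 (16.1 CPM). With rapamycin the markers ran from -1.02 (Dsp) to 0.91 (Wfs1) on the log2 scale, and none of the 9 tested passed in edgeR. The markers were not compared with Htr1a one by one. Hippocampal pyramidal neurons are known for high Htr1a, and the part of hippocampal tissue in these values was not tested. Drd1, the Gs-coupled dopamine receptor, was read at 15.1, 6.22, 16.4 and 8.53 CPM in female vehicle, 16.7, 6.68, 4.97 and 12 in female rapamycin, 5.70, 7.15, 13.4 and 7.93 in male vehicle and 12.1, 8.88, 10.3 and 9.0 in male rapamycin. Its groups overlapped, and the library with most Drd1, female rapamycin 1, had 217 CPM of striatal markers, less than every library except male rapamycin 2.

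**Figure D2:**
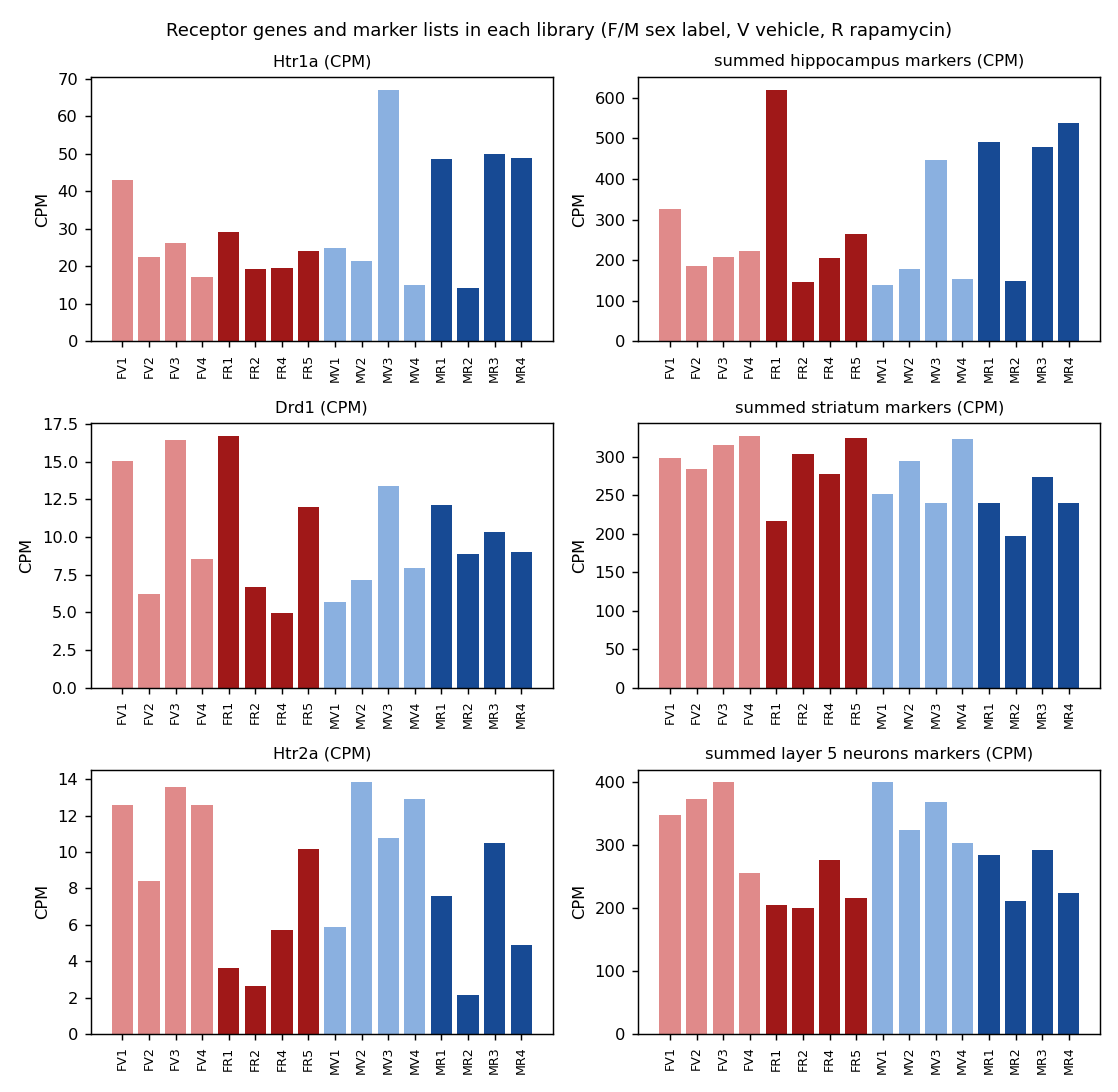
Bars give CPM in each of the 16 libraries (F or M for the labelled sex, V vehicle, R rapamycin, with the replicate number) of Htr1a, Drd1 and Htr2a on the left and of the summed hippocampal, striatal and layer 5 neuron markers on the right. Htr1a exceeded 40 CPM in 5 libraries, which had 326 CPM or more of hippocampal markers. Female rapamycin 1 had 620 CPM of these markers and 29.2 CPM of Htr1a. The layer 5 sum lay between 255 and 400 CPM with vehicle and between 200 and 292 CPM with rapamycin, which overlapped.

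The main comparison asked which receptor genes differed between rapamycin and vehicle with both sexes together. With rapamycin 8 members fell and 1 rose, and the other 22 did not pass. Those that fell were the serotonin receptors Htr1f, Htr2a, Htr4 and Htr5a, the muscarinic receptors Chrm2 and Chrm3, the noradrenaline receptor Adra1a and the histamine receptor Hrh2, by 0.28 to 1.04 on the log2 scale. The noradrenaline receptor Adra2c rose by 0.35. Sex, batch and treatment were the terms of the model, tested by quasi-likelihood in edgeR, with Benjamini-Hochberg adjustment over 16553 genes and an adjusted p under 0.05 as the threshold. By this rule 9 of 31 members passed, where 13.3% of all tested genes did. Among all tested genes 6.86% fell and 6.46% rose. At an unadjusted p under 0.05 there were 12 members, or 38.7%, where 30.4% of all genes were past that limit. At a fold change of at least 1.5 as well, which defines a differentially expressed gene (DEG), 5 members passed (Htr1f, Hrh2, Adra1a, Htr4 and Htr2a), against 2.26% of all genes, and 1.57% of all genes were DEGs that fell. The median log2 fold change was -0.18 over the members and 0.02 over all tested genes, and 20 of 31 members were negative, against 47.7% of all genes. DESeq2 gave an adjusted p for 28 members and called 10, the same 9 and Htr2c, against 20.8% of all genes.

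**Figure D3:**
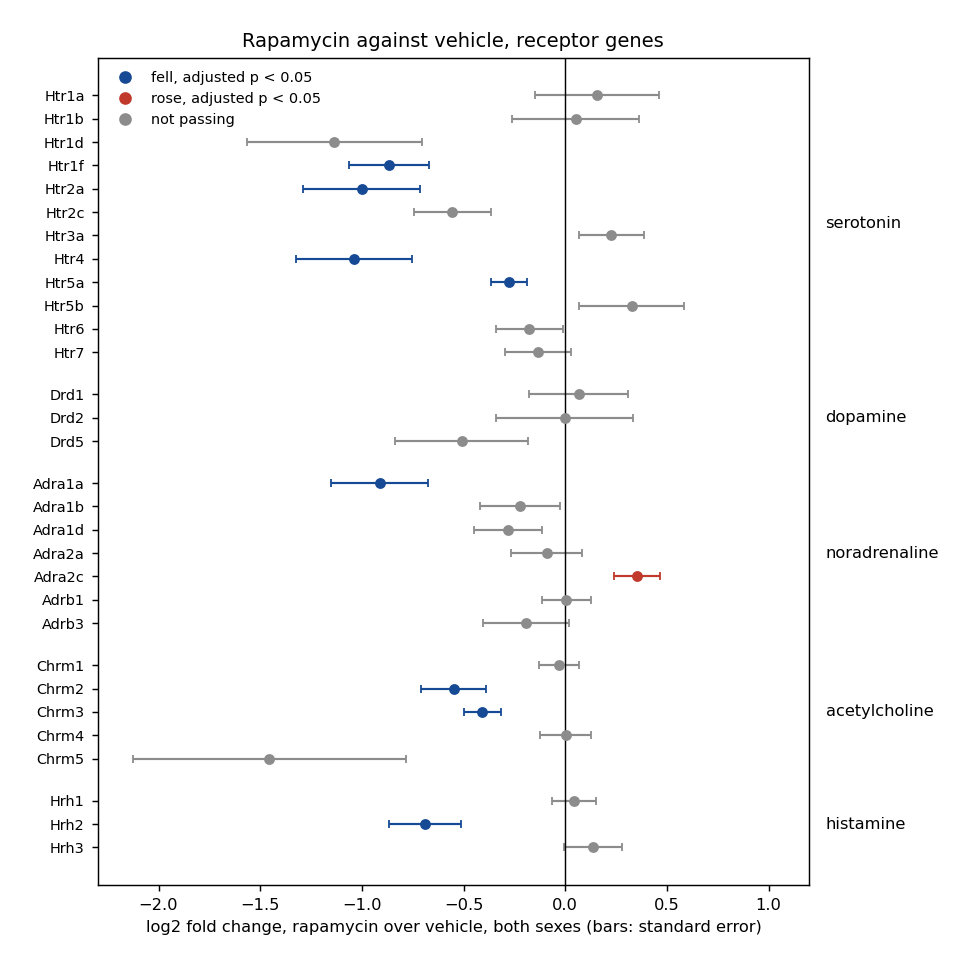
Log2 fold change of rapamycin over vehicle for the receptor genes shown, with both sexes together, grouped by transmitter (points: edgeR estimate, bars: standard error). Blue points are the 8 genes that fell, the red point is Adra2c, which rose, and grey points did not pass.

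Among the serotonin receptors 4 of 12 fell. Htr1f, a Gi/o-coupled receptor, was read at 2.49, 2.83, 4.46 and 2.82 CPM in female vehicle and at 1.53, 2.17, 1.55 and 1.23 CPM in female rapamycin. In males it was read at 1.43, 2.75, 1.90 and 2.79 CPM with vehicle and at 1.2, 1.24, 1.39 and 1.34 CPM with rapamycin. Vehicle and rapamycin did not overlap within either sex, although the lowest male vehicle library lay close to the male rapamycin libraries. Here and for the members below, the share of all genes without overlap within a sex was not counted. Members picked for a treatment difference are also more likely to lack overlap. Htr1f fell by 0.87 on the log2 scale (SE 0.20, edgeR adjusted p = 0.0153), with log2 fold changes of -0.74 in batch 1 and -1.03 in batch 2 taken alone. Its call held in all 16 fits that each left out 1 library (edgeR adjusted p up to 0.0416).

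Htr2a, the Gq-coupled serotonin receptor of cortical pyramidal neurons on which psychedelic drugs act, was read at 12.6, 8.42, 13.6 and 12.6 CPM in female vehicle and at 3.62, 2.61, 5.69 and 10.2 CPM in female rapamycin. Among males the values were 5.88, 13.8, 10.8 and 12.9 CPM with vehicle and at 7.6, 2.13, 10.5 and 4.89 CPM with rapamycin. The groups overlapped in both sexes, all 8 rapamycin libraries lay below the vehicle median, and the lowest values were those of female rapamycin 1 and 2 and male rapamycin 2. Htr2a fell by 1.00 on the log2 scale (SE 0.29, edgeR adjusted p = 0.0320), with -1.13 in batch 1 and -0.97 in batch 2. It lost its call in 9 of the 16 fits that left out 1 library, with an edgeR adjusted p of up to 0.0803 without female rapamycin 1.

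Htr4, a Gs-coupled receptor, was read at 2.29, 3.39, 2.66 and 1.86 CPM in female vehicle and at 0.459, 0.815, 1.49 and 1.03 CPM in female rapamycin, which did not overlap. Among males the values were 2.67, 1.70, 2.65 and 1.34 CPM with vehicle and at 1.66, 0.592, 1.75 and 0.926 CPM with rapamycin, which overlapped. It had between 9 and 60 counts per library. Htr4 had the largest fall among the members that passed, 1.04 on the log2 scale (SE 0.29, edgeR adjusted p = 0.0269), with -1.34 in batch 1 and -0.54 in batch 2. The call was lost without female rapamycin 1 (edgeR adjusted p = 0.0644), female rapamycin 2 (0.0670) or male rapamycin 2 (0.0577). Htr5a, a Gi/o-coupled receptor, changed least among the members that fell. It was read at 26.4, 24.5, 27.1 and 19.6 CPM in female vehicle, 20.8, 20.4, 19.2 and 15.4 in female rapamycin, 30.5, 25.3, 26.7 and 24.5 in male vehicle and 23.7, 17.9, 26.9 and 21.5 in male rapamycin. The groups overlapped in both sexes and 7 of 8 rapamycin libraries lay below the vehicle median. The fall was 0.28 on the log2 scale (SE 0.09, edgeR adjusted p = 0.0441), with -0.30 in batch 1 and -0.18 in batch 2, and 12 of the 16 fits that left out 1 library lost the call (edgeR adjusted p up to 0.0907, without male rapamycin 2).

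Among the serotonin receptors that did not pass, Htr2c and Htr1d came closest. Htr2c, a Gq-coupled receptor, stood at 37.7 ± 10.8 CPM with vehicle and 25.5 ± 7.57 CPM with rapamycin (SD, 8 libraries each), a log2 fold change of -0.56 (SE 0.19, edgeR adjusted p = 0.0597). Choroid plexus epithelium is known for high Htr2c. In the fit of all 16 libraries 7 of the 14 choroid plexus markers fell with rapamycin, where 6.86% of all tested genes fell. Male vehicle 4, with 2082 CPM of these markers, had 34.6 CPM of Htr2c, and male vehicle 1, with 26.6 CPM of them, had the highest Htr2c, 59.3 CPM. The part of choroid plexus in the Htr2c values was not tested. Htr1d, with 0 to 14 counts in a library, had an estimate of -1.13 on the log2 scale (SE 0.43, edgeR adjusted p = 0.0840). The remaining 6 serotonin receptors had log2 fold changes between -0.18 (Htr6) and 0.33 (Htr5b), with standard errors between 0.16 and 0.31.

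**Figure D4:**
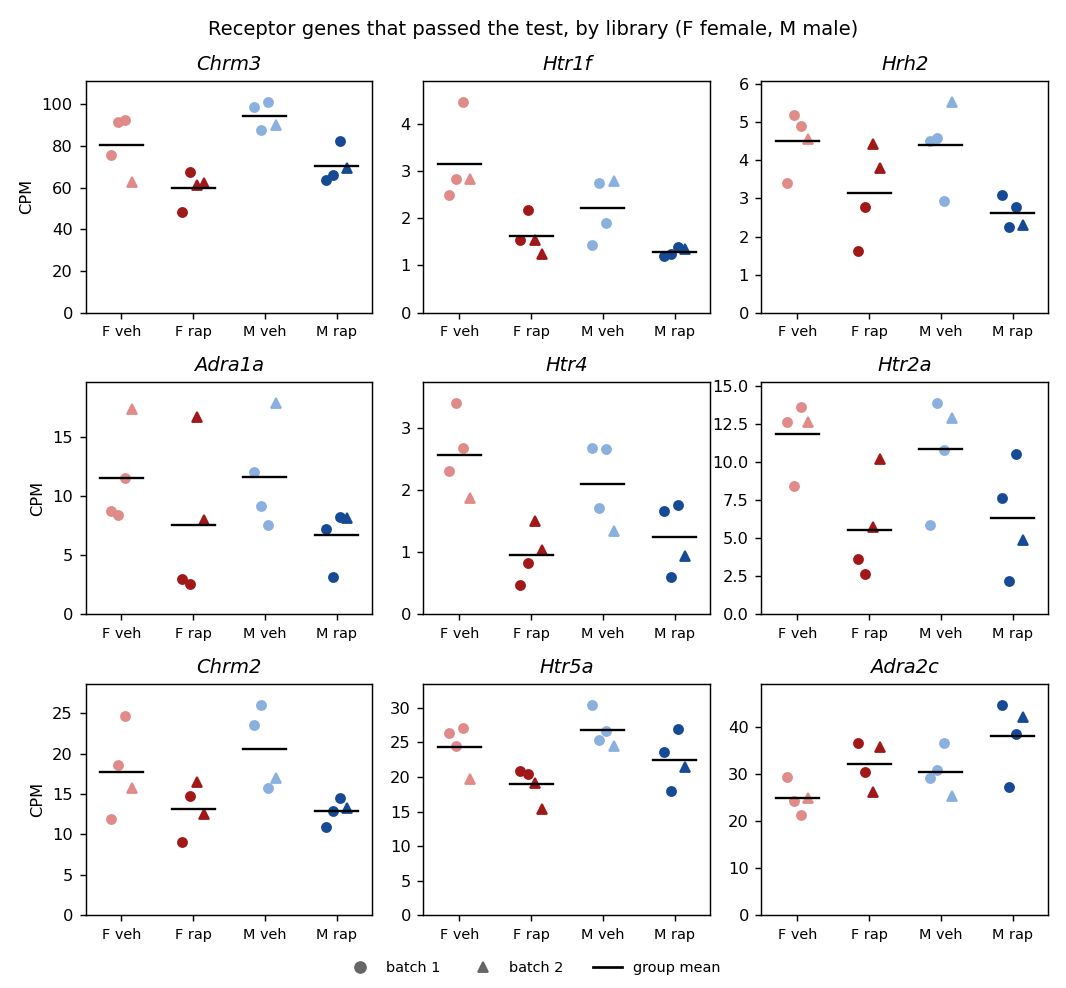
CPM in each library of the 9 receptor genes that passed the test with both sexes together (F female, M male, veh vehicle, rap rapamycin), with batch 1 as circles, batch 2 as triangles and group means as bars. Each mean is lower with rapamycin in both sexes for 8 genes and higher for Adra2c, and single libraries overlap in most panels.

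Of the 5 muscarinic receptors Chrm2 and Chrm3 fell. Chrm3, a Gq-coupled receptor, was read at 75.8, 91.3, 92.2 and 62.6 CPM in female vehicle and at 48.4, 67.3, 61.2 and 62.4 CPM in female rapamycin. In males it was read at 98.5, 87.7, 101 and 90.2 CPM with vehicle and at 63.8, 66.1, 82.5 and 69.5 CPM with rapamycin. The male groups did not overlap, and among females vehicle 4, of batch 2, at 62.6 CPM, lay within the rapamycin range. Chrm3 fell by 0.41 on the log2 scale (SE 0.09, edgeR adjusted p = 0.0145), which was the smallest p of the members, with -0.50 in batch 1 and -0.17 in batch 2. Its call held in all 16 fits that left out 1 library (edgeR adjusted p up to 0.0391).

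Chrm2, a Gi/o-coupled receptor found on cholinergic terminals and on some cortical neurons, was read at 11.9, 18.6, 24.7 and 15.7 CPM in female vehicle and at 9.07, 14.7, 16.5 and 12.5 CPM in female rapamycin. In males it was read at 23.6, 26.1, 15.7 and 17 CPM with vehicle and at 11, 12.9, 14.5 and 13.3 CPM with rapamycin. The female groups overlapped and the male groups did not. Chrm2 fell by 0.55 on the log2 scale (SE 0.16, edgeR adjusted p = 0.0335), with -0.71 in batch 1 and -0.21 in batch 2, and 10 of the 16 fits that left out 1 library lost the call (edgeR adjusted p up to 0.0846, without female rapamycin 1). Chrm1 and Chrm4, which have the highest levels per length of this family, had log2 fold changes of -0.03 (SE 0.10) and 0.00 (SE 0.13). Chrm5, with 0 to 29 counts, had the most negative estimate of all members, -1.45, with an SE of 0.67 and an edgeR adjusted p of 0.153.

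Of the 8 noradrenaline receptors Adra1a fell and Adra2c rose. Adra1a, a Gq-coupled receptor, was read at 8.74, 8.36, 11.5 and 17.4 CPM in female vehicle and at 2.96, 2.50, 16.6 and 7.91 CPM in female rapamycin. Among males the values were 12, 9.10, 7.54 and 17.8 CPM with vehicle and at 7.20, 3.14, 8.2 and 8.13 CPM with rapamycin. The groups overlapped, and batch mattered, since the 3 values above 15 CPM were all of batch 2 and Adra1a was higher there by 1.09 on the log2 scale (SE 0.25, edgeR adjusted p = 0.00314), where 35.5% of all genes differed between batches. Within batch 1 vehicle and rapamycin still overlapped, at 7.54 CPM and above with vehicle and 8.2 CPM and below with rapamycin. Adra1a fell by 0.91 on the log2 scale (SE 0.24, edgeR adjusted p = 0.0229), with -1.11 in batch 1 and -0.77 in batch 2, and lost its call without female rapamycin 1 (edgeR adjusted p = 0.0599) or female rapamycin 2 (0.0529).

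Adra2c, a Gi/o-coupled receptor that acts as an inhibitory receptor on noradrenaline terminals and other neurons, was read at 29.4, 24.1, 21.3 and 24.9 CPM in female vehicle and at 36.5, 30.3, 26.1 and 35.7 CPM in female rapamycin. Among males the values were 29.0, 30.8, 36.6 and 25.3 CPM with vehicle and at 44.6, 27.2, 38.3 and 41.9 CPM with rapamycin. The groups overlapped in both sexes, and 7 of 8 rapamycin libraries lay above the vehicle median. Adra2c rose by 0.35 on the log2 scale (SE 0.11, edgeR adjusted p = 0.0451), with 0.30 in batch 1 and 0.50 in batch 2, and 12 of the 16 fits that left out 1 library lost the call (edgeR adjusted p up to 0.111, without female rapamycin 1). Adra1b, Adra1d, Adra2a, Adrb1 and Adrb3 did not pass, with log2 fold changes between -0.28 (Adra1d) and 0.01 (Adrb1) and standard errors between 0.12 and 0.21.

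Of the 3 histamine receptors Hrh2 fell. Hrh2, the Gs-coupled histamine receptor, was read at 3.42, 5.20, 4.89 and 4.56 CPM in female vehicle and at 1.63, 2.77, 4.42 and 3.80 CPM in female rapamycin. In males it was read at 4.51, 4.60, 2.94 and 5.53 CPM with vehicle and at 3.09, 2.25, 2.77 and 2.31 CPM with rapamycin. The groups overlapped in both sexes and all 8 rapamycin libraries lay below the vehicle median. Hrh2 fell by 0.69 on the log2 scale (SE 0.18, edgeR adjusted p = 0.0222), with -0.77 in batch 1 and -0.62 in batch 2, and lost its call without female rapamycin 1 (edgeR adjusted p = 0.0548) or male vehicle 4 (0.0529). Hrh1, a Gq-coupled receptor, and Hrh3 had log2 fold changes of 0.04 (SE 0.11) and 0.14 (SE 0.14). None of the 3 dopamine receptors passed in edgeR or DESeq2, with log2 fold changes of 0.07 (SE 0.24) for Drd1, 0.00 (SE 0.34) for Drd2 and -0.51 (SE 0.33) for Drd5.

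The members that fell did not share one kind of coupling. Of the 9 Gq/11-coupled members 3 fell (Htr2a, Chrm3 and Adra1a), of the 9 Gs-coupled members 2 fell (Htr4 and Hrh2), and of the 12 Gi/o-coupled members 3 fell (Htr1f, Htr5a and Chrm2) and 1 rose. They did differ from the rest in the length of the gene on the genome. The 8 genes that fell spanned between 12.9 and 485 kilobases with a median of 119 kilobases, the 22 that were not called had a median span of 8.71 kilobases, and Adra2c spans 3.445 kilobases. Of the 6 members over 100 kilobases 4 fell, of the 13 from 10 to 100 kilobases 4 fell, and of the 12 under 10 kilobases none fell and 1 rose. The same gradient ran through all tested genes, of which 21.5% fell and 0.864% rose over 100 kilobases, 6.19% fell and 4.30% rose from 10 to 100 kilobases, and 1.23% fell and 13.3% rose under 10 kilobases.

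Several measures of the libraries moved with treatment beside these genes. The hippocampal sum had medians of 197 CPM with vehicle and 372 CPM with rapamycin, and the oligodendrocyte sum 4582 and 5854 CPM, with overlapping ranges. In the glutamatergic and layer 6 lists 1 of 7 markers fell each. Of the upper layer markers 1 of 6 rose, and of the astrocyte markers 1 of 8 rose. The part of these lists in the members' changes was not tested. Of 6 markers of layer 5 neurons, a class of deep cortical projection neurons, 3 fell (Etv1 by 0.81, Parm1 by 0.60 and Bcl11b by 0.43 on the log2 scale), and none of the 6 was at 0 in any library. The other 3 did not pass, with log2 fold changes of -0.25 for Fezf2, 0.40 for Tcerg1l and -0.01 for Qrfpr. The sum of all 6 lay between 255 and 400 CPM with vehicle (median 358) and between 200 and 292 CPM with rapamycin (median 219.8), and within batch 1 these ranges did not overlap. Among single tested genes, 2.37% were lower and 2.22% higher with rapamycin in batch 1 without overlap. The slope of a library's expression on exon length lay between 0.000395 and 0.10 with vehicle and between -0.127 and 0.0640 with rapamycin, and the mitochondrial share between 2.64% and 5.47% with vehicle and between 3.75% and 6.99% with rapamycin. Female rapamycin 1 and 2 and male rapamycin 2 stood apart on both measures, with slopes of -0.121, -0.127 and -0.122 and mitochondrial shares of 6.88%, 6.98% and 6.99%, while the other 5 rapamycin libraries had slopes of -0.0333 or above and shares of 5.08% or below. Of the 14 choroid plexus markers 7 fell and none rose, where 6.86% of all tested genes fell. Their median log2 fold change was -1.73, and only Tmem72 was at 0 in a library. The sum of these markers lay between 18.6 and 2082 CPM with vehicle (median 157) and between 27.0 and 204 CPM with rapamycin (median 77.8). The calls of these markers were not repeated without male vehicle 4, which had the 2082 CPM. The part of these markers in the members' changes was not tested. With the layer 5 sum, the slope or the mitochondrial share as a covariate none of the 31 members passed, and of all 16553 genes 0 passed in each of these edgeR fits. At an unadjusted p under 0.05 there were 3, 3 and 6 members with the layer 5 sum, the slope and the mitochondrial share. The share of all genes past that unadjusted limit was not counted in these fits, so these member counts have no background. The layer 5 sum was added after seeing the data. With male vehicle 4 left out together with the library labelled male rapamycin 4, 4 members passed (Chrm3, Htr4, Adra1a and Htr1f), where 6.22% of all genes did. Without female rapamycin 1 alone 2 passed (Chrm3 and Htr1f), where 4.26% of all genes did, and without female rapamycin 2 alone 3 passed, where 5.15% did.

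The treatments were also compared within each sex, in a fit of the 4 groups with batch. None of the 31 members passed in edgeR in females, where 0.0121% of all genes passed, or in males, where 0 genes did. At an unadjusted p under 0.05 there were 9 members in females (23.1% of all genes) and 8 in males (12% of all genes). The male values here include the library labelled male rapamycin 4. Without that library 6 members were past the unadjusted limit in males, where the share of all genes was not counted. DESeq2 called 5 of 28 members in females, Adra1a, Htr4, Htr2a, Htr1f and Chrm3, where it called 11% of all genes, and 0 of 31 in males, where 0.323% of all genes passed and 8 members had an unadjusted p under 0.05 (8.17% of all genes). The median log2 fold change over the members was -0.28 in females, where 26 of 31 were negative, and -0.03 in males, where 16 of 31 were negative. Over all tested genes it was 0.02 in females, where 47.9% were negative, and 0.01 in males, where 48.7% were negative. The 9 members that passed with both sexes together had the same direction in each sex. Choosing them on both sexes favours that outcome. Their log2 fold changes in females ran from -1.36 for Htr4 to 0.38 for Adra2c and in males from -0.78 for Htr1f to 0.33 for Adra2c.

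**Figure D5:**
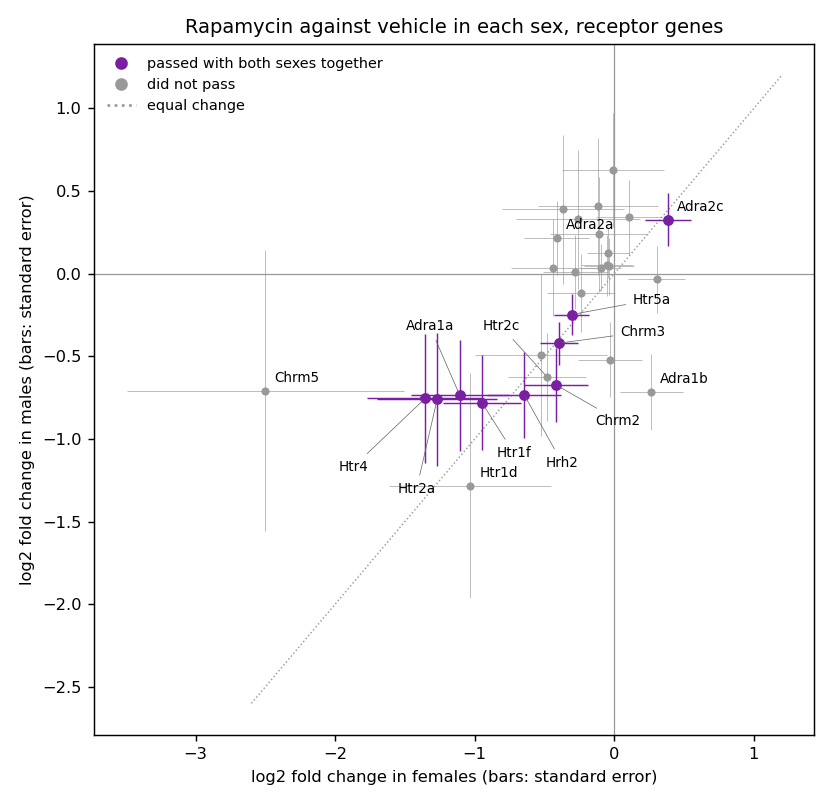
Log2 fold change of rapamycin over vehicle in females (horizontal) against males (vertical) for the receptor genes shown, with standard errors as bars and the dotted line marking equal change. The 9 purple genes passed with both sexes together and lie on the same side of 0 in both sexes, and Adra1b lies at 0.27 in females and -0.72 in males.

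A difference in response between females and males was tested by an interaction term, and none of the 31 members passed in edgeR, where 0 of 16553 genes did, or in DESeq2, where 0.0827% did. In either tool 1 member had an unadjusted p under 0.05, against 2.17% of all genes in edgeR and 2.04% in DESeq2. It was Adra1b, a Gq-coupled noradrenaline receptor, with an interaction of 0.98 on the log2 scale (SE 0.33, unadjusted p = 0.00785 and adjusted p = 0.999 in edgeR). Adra1b was read at 18.2, 19.7, 20.8 and 22.9 CPM in female vehicle, 32.4, 22.9, 19.8 and 20.6 in female rapamycin, 25.8, 27.1, 14 and 25.8 in male vehicle and 14.8, 13.5, 20.4 and 8.74 in male rapamycin. The highest value was that of female rapamycin 1 and the lowest that of the library labelled male rapamycin 4. The interaction counts the latter library as male. Without that library none of the members passed and 1 had an unadjusted p under 0.05 in edgeR. The Adra1b estimate and the share of all genes past that limit were not looked at in that fit. The groups of both sexes overlapped. Next by p was Adra2a, a Gi/o-coupled receptor, with an interaction of -0.63 (SE 0.32, unadjusted p = 0.0664 in edgeR).

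Vehicle females and vehicle males were compared in the same fit, and none of the 31 members passed in edgeR, where 0.0121% of all genes did, or in DESeq2, where 0.0992% did. At an unadjusted p under 0.05 edgeR gave 1 member, against 3.55% of all genes, and DESeq2 gave 2, against 2.88%. The edgeR member was Adra1d, a Gq-coupled noradrenaline receptor, at 26.2, 38.9, 27.7 and 36.1 CPM in female vehicle and 47.7, 56.8, 30.2 and 45.8 CPM in male vehicle. The groups overlapped through male vehicle 3, and the log2 fold change, female over male, was -0.49 (SE 0.23, unadjusted p = 0.0450 in edgeR). Drd2, the Gi/o-coupled dopamine receptor, had the largest estimate, 0.92 (SE 0.44).

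The genes that act before and after the receptors were described from 6 lists. Of 7 tested genes of transmitter synthesis and vesicle loading 1 rose, Ddc, the decarboxylase of serotonin and dopamine synthesis, by 0.61 on the log2 scale (SE 0.16, edgeR adjusted p = 0.0218), and the list's median was -0.09. Of 8 tested genes of transmitter uptake and breakdown none passed in edgeR or DESeq2 (median 0.12). The plasma membrane transporters Slc6a2, Slc6a3 and Slc6a4, which mark noradrenaline, dopamine and serotonin cells, had means of 0.0213, 0.335 and 0.0837 CPM and did not pass the count filter.

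Within the signalling chain, 7 of the 12 genes for adenylyl cyclases and phospholipase C beta fell and none rose, with a median log2 fold change of -0.46, where 6.86% of all tested genes fell. The 3 with the smallest p were Plcb1 (-0.52, SE 0.10, edgeR adjusted p = 0.0107), Adcy9 (-0.88, SE 0.19, edgeR adjusted p = 0.0140) and Plcb2 (-0.57, SE 0.14, edgeR adjusted p = 0.0179). Plcb1 encodes the main phospholipase C beta of cortical neurons and Adcy9 a widely expressed adenylyl cyclase. Of 9 tested G protein alpha subunits 1 fell, Gnaq, the subunit of Gq itself, by 0.41 (SE 0.11, edgeR adjusted p = 0.0255), and the list's median was -0.02. Of 17 second messenger targets 4 fell, among them the calcium channel of internal stores Itpr1 (-0.63, SE 0.14, edgeR adjusted p = 0.0145), the cyclic AMP phosphodiesterase Pde4d (-0.65, SE 0.16, edgeR adjusted p = 0.0200) and the protein kinase C gene Prkcb (-0.28, SE 0.08, edgeR adjusted p = 0.0343), with a list median of -0.09. Of 14 tested receptor kinases, arrestins and RGS proteins, which switch receptor signals off, none passed in edgeR or DESeq2 (median 0.03).

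For members that moved together, the bases upstream of the gene are given so that what they share can be seen, without any measurement of promoter activity in these data. RefSeq windows on GRCm38.p6 matched 23 of the 31 members by symbol, and motifs were searched on both strands of the 250 bases before the start. In 16 of the 23 windows the bases after the start lay in an annotated transcript of the gene. The other windows may not lie directly before the counted gene. For Htr5a the window ends at 27841996, while its counted exons start at 27842149. The GC box GGGCGG was found in 13 of 23 members (32.9% of 27025 windows). Among the 6 matched members that fell these were Chrm2, Hrh2 and Htr2a. Among the 16 that were not called they were Adra2a, Adrb1, Chrm4, Drd2, Drd5, Hrh1, Hrh3, Htr1a, Htr1d and Htr6. The TATA box TATAAA was found in 1 member (13% of windows), Adra2a, and the cyclic AMP response element TGACGTCA in 0 (1.62% of windows). The median number of CpG dinucleotides in these bases was 6 over all windows, 12 over the members, 9.5 over the 6 matched members that fell and 18 over the 16 matched members that were not called. Upstream bases outside annotated exons are shown for the 4 members that passed and whose matched window holds at least 200 such bases, with the GC box in capitals on whichever strand it lies. They are chr13:10360848-10361053 on the minus strand for Chrm3, chr13:54191883-54192128 on the plus strand for Hrh2, chr14:74640624-74640839 on the plus strand for Htr2a and chr5:27841697-27841946 on the plus strand for Htr5a, each written 5′ to 3′ in the direction of the gene.
Chrm3: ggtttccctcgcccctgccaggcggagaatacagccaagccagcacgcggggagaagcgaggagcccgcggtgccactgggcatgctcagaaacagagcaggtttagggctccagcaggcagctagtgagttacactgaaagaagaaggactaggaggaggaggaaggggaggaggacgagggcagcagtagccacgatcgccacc
Hrh2: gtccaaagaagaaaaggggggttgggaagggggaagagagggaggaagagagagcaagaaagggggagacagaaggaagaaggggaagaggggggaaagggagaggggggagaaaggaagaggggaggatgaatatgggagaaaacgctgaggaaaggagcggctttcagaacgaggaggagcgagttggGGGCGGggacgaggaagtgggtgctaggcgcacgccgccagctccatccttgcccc
Htr2a: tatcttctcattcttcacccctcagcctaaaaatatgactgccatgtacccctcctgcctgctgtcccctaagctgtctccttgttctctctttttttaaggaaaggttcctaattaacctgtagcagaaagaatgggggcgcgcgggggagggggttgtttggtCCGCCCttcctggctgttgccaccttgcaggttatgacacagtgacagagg
Htr5a: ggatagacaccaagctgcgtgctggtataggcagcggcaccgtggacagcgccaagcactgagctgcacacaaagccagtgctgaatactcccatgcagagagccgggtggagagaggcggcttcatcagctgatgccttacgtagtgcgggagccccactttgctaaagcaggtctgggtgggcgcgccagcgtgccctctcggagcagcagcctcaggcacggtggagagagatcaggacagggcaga
Of these, the Hrh2 and Htr2a sequences each hold 1 GC box, Htr2a's on the opposite strand, and those of Chrm3 and Htr5a hold none.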

How the data were processed

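Cortex RNA of female and male 5xFAD mice was sequenced as read pairs in 16 libraries, and the 5 receptor families were read from the deposited table of raw read pair counts. Per the paper's methods and the submitters' processing notes, the authors checked and trimmed reads (FastQC 0.11.9, Trim Galore, Trimmomatic 0.39), aligned them to GRCm38 with HISAT2 2.2.1 and made counts per gene with featureCounts 2.0.3. A strand setting for counting is not given in the sources used here. The members and the gene lists were chosen with earlier results of these data known.

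Genes were filtered with filterByExpr (at least 10 counts, 16553 of 47593 genes, 99.9% of read pairs). Rapamycin was compared with vehicle by the quasi-likelihood test of edgeR 4.0.16 (R 4.3.3, TMM factors) with sex, batch and treatment, and the other comparisons with the 4 groups and batch, all with Benjamini-Hochberg adjustment over 16553 genes. Statistics were tested on simulated data. Levels are CPM divided by the exon length in the table. Library totals were 16393501 to 20593089 counts, with a biological coefficient of variation of 0.186. DESeq2 1.42.0, RLE factors, no count filter, no batch term, a replicate block, single batches, library measures as covariates and leaving out libraries were the alternatives. Values in every library are given for members that passed and for the highest member per length of each family, by a fixed rule, and for Adra1b and Adra1d, which were singled out after their values were seen. For 1 of the 31 members no value is reported here. Figures used Python 3.11.15 and matplotlib 3.10.9.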

Additional observations from a re-analysis of the deposited data

Results flagged for a closer look

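Within each group of 4 libraries, the highest or lowest value of each member was compared with the other 3 by Dixon's ratio of the gap to the range, at its 95% critical value. Of 124 sets 6 were past it, where about 6.2 are past it by chance. Male vehicle 3 stood apart for 3 noradrenaline receptors, with 14 CPM of Adra1b (25.8 to 27.1 in the other 3), 35.5 CPM of Adra2a (20 to 22.6) and 41.1 CPM of Adrb1 (48.5 to 49.7). In male rapamycin 2, Htr1a stood at 14.2 CPM, while the other 3 libraries had 48.7 to 50.0 CPM. In female vehicle 3, Htr1f stood at 4.46 CPM (2.49 to 2.83 in the other 3), and its fall with rapamycin kept its call without that library. In male vehicle 1, Htr2c stood at 59.3 CPM (30.6 to 34.6 in the other 3).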

How the results depend on the processing

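With both sexes together 9 members passed. The count was 10 with DESeq2 (the 9 and Htr2c), 9 with RLE factors (13.5% of all genes), and 9 without the count filter (8.68%), of which 8 were shared. Without the batch term 2 passed (Chrm3 and Htr1f, 0.858% of all genes), in batch 1 alone 6 (7.45%), of which 5 were shared, and in batch 2 alone 0 (0.0170%). With the exon length slope, the mitochondrial share or, added after seeing the data, the layer 5 marker level as a covariate 0 passed, and with the last of these Adra1a stood at 0.0305 and Htr4 at 0.0543 on the log2 scale, above 0 (adjusted p = 1.00 in edgeR for both). Over these 3 fits Htr1f lay between -1.04 and -0.69 and Adra2c between 0.33 and 0.54, against -0.87 and 0.35 without a covariate, while Htr5a lay between -0.18 and -0.03. The cause of these changes was not tested. Leaving out 1 library at a time gave between 2 (4.26% of all genes) and 10 (20%). It gave 5 without female vehicle 3 (8.19%), male vehicle 4 (7.34%) or male rapamycin 2 (5.85%). Without female rapamycin 2 it gave 3 (5.15%), and without female rapamycin 1 it gave 2 (4.26%). With both male vehicle 4 and the one labelled male rapamycin 4 left out, also added after seeing the data, 4 passed (6.22% of all genes).

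The labels share replicate numbers between groups. With the replicate block in place of batch 5 members passed (Chrm3, Htr2a, Htr1f, Adra1a and Hrh2, 7.84% of all genes), and Htr4, Chrm2, Htr5a and Adra2c had an edgeR adjusted p between 0.0514 and 0.0783. The deviations of same-numbered libraries from their group means correlated at over 0.1 in 18 of 21 pairs (r from -0.157 to 0.675), and 12 of 15 libraries correlated best with one of their own number. With batch removed r lay between -0.433 and 0.366, and for the pairs of number 4 between -0.433 and 0.0293. Numbers 1 to 3 are batch 1 wherever they occur and number 4 is batch 2 in every group. Neither the count of 18 pairs nor that of 12 libraries therefore separates number from batch. Since not every pair was over 0.1 and the labels tie no number to a shared animal, litter or day, the numbers were not used as pairs.

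In females, where 0 members passed, 5 passed with DESeq2, 5 without the count filter (5.55% of all genes), 4 in batch 1 alone (7.75%), and between 0 and 3 with 1 library left out, the 3 being without female rapamycin 4 (12.6%). In males 6 passed without the count filter (1.74%) and 0 in the other fits, and in the interaction 1, Adra1b, without the count filter (0.288%). Between vehicle females and males none passed in any edgeR or DESeq2 fit. In the fits of all libraries 1 to 4 members had an unadjusted p under 0.05. Of all genes 3.55% were past that limit in the main edgeR fit and 2.88% with DESeq2. The share was not counted in the other fits. Depth limits Chrm5, Htr1d and Drd5 most, with at most 29 counts per library. The median log2 fold change of all genes stayed between 0.01 and 0.02 under all these settings of the comparison of both sexes.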
